A study of Ciona robusta with 6 samples.

Results

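The genes err and coup encode nuclear receptors, and both were taken by their exact symbols from a deposited expression table for the heart of a tunicate, the ascidian Ciona robusta, so that they are 2 of the 793 genes listed there. RNA was sequenced from pooled pieces of 3 heart parts of wild caught adults, namely the pharyngeal blood sinus (PS), the stomach blood sinus (SS) and the central cardiac tube (C), with 2 libraries per part and 6 in all. No animal carried a mutation or received a treatment, pericardial cells had been removed, and both sinus samples kept a little of the neighbouring heart muscle. Levels are given as FPKM, fragments per kilobase of gene, which allows genes of different length to be compared. The authors scaled the libraries by size factors, not to equal totals. Both genes were chosen by their measured FPKM in these same 6 libraries, where both were lower in the sinuses than in the cardiac tube, so their own levels and differences are described here without a test.

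Nuclear receptors are transcription factors with a zinc finger domain that binds DNA and a second domain that, in many of them, binds a small lipophilic ligand. The estrogen-related receptors, for which err is named, are orphan receptors, and in mammals they switch on genes of mitochondrial respiration and fatty acid oxidation in heart and other muscle. The COUP transcription factors, called Nr2f in vertebrates, are orphan receptors as well. In mouse and zebrafish they promote atrial over ventricular identity, and in mouse also venous over arterial identity. The study examined the tunicate vessels to ask whether the blood sinuses on either side of a heart with 1 chamber are alike, and looked for counterparts of vertebrate chamber and vessel genes.

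Both receptors were lower in each sinus than in the cardiac tube, and the sinuses fell in opposite order for the 2 genes. The level of err was lowest in the PS, at 43.1% of the cardiac tube mean, and intermediate in the SS, at 67.1%. The level of coup was lowest in the SS, at 55.3% of the cardiac tube mean, with 67.6% in the PS. In the deposited scaling err ran in clear steps between the groups, whereas the PS replicates of coup differed by more than the sinus means did. A second scaling set every library to the same total over the listed genes, not to its read depth, which is unknown. In that scaling err was still separate in the PS, but coup in the PS overlapped the cardiac tube.

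The err transcript measured 270 and 297 FPKM in the PS libraries, 459 and 423 FPKM in the SS libraries, and 664 and 651 FPKM in the cardiac tube libraries. No library of one part overlapped another, and the distance from the lower cardiac tube library to the higher SS library (192 FPKM) and from the lower SS library to the higher PS library (127 FPKM) exceeded the widest gap between replicates (36.0 FPKM, in the SS). The group means were 283 ± 18.7 FPKM in the PS, 441 ± 25.4 FPKM in the SS and 658 ± 9.55 FPKM in the cardiac tube (SD, n = 2 each).

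As differences of log2(FPKM + 1), err was -1.21 ± 0.12 in the PS against the cardiac tube, -0.58 ± 0.12 in the SS against the cardiac tube and -0.64 ± 0.12 in the PS against the SS (SE, from the limma model of all genes). Among the 793 genes, the difference of err between the PS and the cardiac tube was the 14th lowest, that between the SS and the cardiac tube the 52nd lowest and that between the sinuses the 69th lowest. Both comparisons with the cardiac tube use the same 2 cardiac libraries.

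The coup transcript measured 58.7 and 43.1 FPKM in the PS libraries, 41.8 and 41.4 FPKM in the SS libraries, and 66.2 and 84.4 FPKM in the cardiac tube libraries. In the deposited scaling every sinus library lay below both cardiac tube libraries, but the nearest ones were 7.53 FPKM apart, less than the 15.6 FPKM between the PS replicates and the 18.2 FPKM between the cardiac tube replicates. At equal library sums PS replicate 1, at 63.2, lay above cardiac tube replicate 1, at 54.3, so this separation was lost. The lower PS library was only 1.30 FPKM above the higher SS library, so the PS and the SS did not differ beyond their spread. The means were 50.9 ± 11.0 FPKM in the PS, 41.6 ± 0.269 FPKM in the SS and 75.3 ± 12.9 FPKM in the cardiac tube (SD, n = 2 each).

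On the log2(FPKM + 1) scale, coup was -0.56 ± 0.25 in the PS against the cardiac tube, -0.83 ± 0.25 in the SS against the cardiac tube and 0.27 ± 0.25 in the PS against the SS (SE). The SS difference was the 19th lowest of 793 genes and the PS difference the 59th lowest. A single library set much of the size of the differences in the PS. Without PS replicate 1 the difference between the sinuses was 0.05, and without PS replicate 2 that between the PS and the cardiac tube was -0.34. Leaving out cardiac tube replicate 1 gave -1.003 for the SS and -0.74 for the PS against the cardiac tube, and leaving out cardiac tube replicate 2 gave -0.66 and -0.39.

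**Figure D1:**
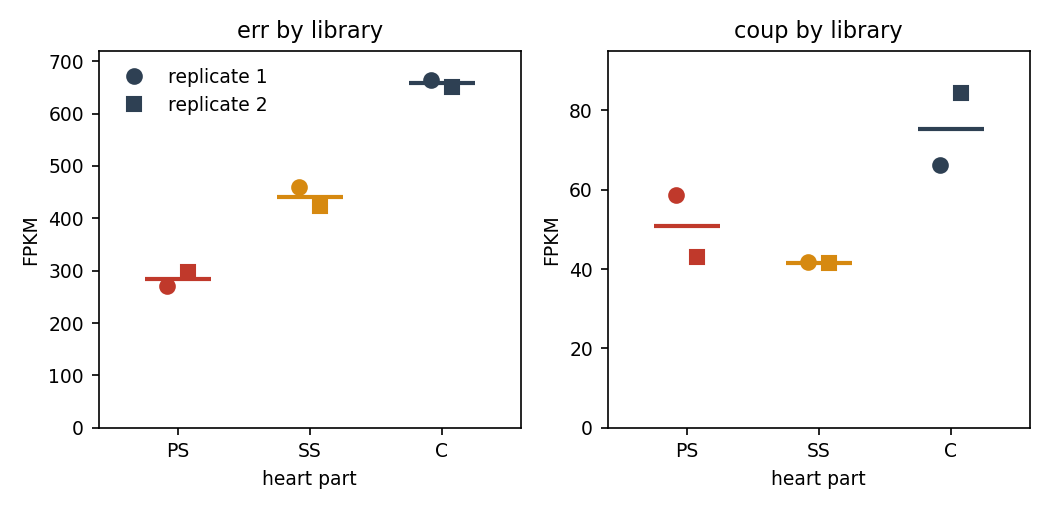
FPKM of err (left) and coup (right) in each library of the pharyngeal sinus (PS), stomach sinus (SS) and cardiac tube (C), with replicate 1 as a circle, replicate 2 as a square and the group mean as a bar. The 6 err values form 3 separate levels from 270 to 664 FPKM, and the coup values of the PS (58.7 and 43.1 FPKM) reach almost down to those of the SS.

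A position below both cardiac tube libraries in all 4 sinus libraries, which err and coup share in the deposited scaling, was found there in 170 of the 793 genes (21.4%). With equal sums 26 genes had it (3.28%) and with adjusted read values at equal totals 32 (4.04%), err among them and coup not. These values chose the 2 genes, so nothing is read from either having it. The replicates of err were no further apart than is usual. On the log2 scale the gap was 0.13 in the PS, 0.12 in the SS and 0.03 in the cardiac tube, where the median gene among the 732 with a mean FPKM of at least 5 had gaps of 0.15, 0.19 and 0.17. For coup the gaps were 0.44 in the PS, 0.01 in the SS and 0.35 in the cardiac tube. Of the 732 genes, 86.2% had a smaller gap than coup in the PS and 79.2% in the cardiac tube.

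Among the listed genes err ranked high in all 3 parts, and coup ranked in the middle or lower. Ranked by FPKM among the 793 genes, err stood 204th and 191st in the PS libraries, 139th and 147th in the SS libraries and 126th and 122nd in the cardiac tube libraries. The ranks of coup were 468th and 522nd in the PS, 546th and 560th in the SS and 430th and 386th in the cardiac tube. Transcripts of both genes were thus present in the sinus samples as well as in the heart tube. The sinus samples kept a little heart muscle, so the cells that held these transcripts cannot be told. The study placed the Ciona Nr2f gene in the cardiac tube. It did not find expression of that gene, or of Hedgehog signalling, in the SS.

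The ratio of err to coup within a library does not depend on how libraries are scaled. It was 4.61 and 6.88 in the PS libraries, 11.0 and 10.2 in the SS libraries and 10.04 and 7.71 in the cardiac tube libraries. Both PS values lay below the other 4, whereas the SS values lay above those of the cardiac tube by less than the spread of the cardiac tube. The mean ratio was 5.74 ± 1.61 in the PS, 10.6 ± 0.543 in the SS and 8.87 ± 1.64 in the cardiac tube (SD, n = 2 each).

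Genes of heart muscle had lower levels in the sinuses as well. The 5 listed markers were the homeobox gene nk4, the tropomyosin gene tropm1, the intermediate filament gene if-a, the Iroquois gene irx-b and smyd1. In vertebrates smyd1 encodes a muscle methyltransferase. All 5 had negative differences in both sinuses. Equal library sums (every library rescaled to the same total over the listed genes) put tropm1 at 0.00 in the PS and 0.15 in the SS. They put smyd1 at 0.04 in the SS. Those sums include if-a, which alone took 16.9% and 18.1% of the adjusted read total in the cardiac tube and 8.41% and 7.99% in the PS. In the PS against the cardiac tube 4 of the 5 markers passed an adjusted p of 0.05 (limma, Benjamini-Hochberg over all genes). In the SS 1 did, irx-b. These markers were listed with earlier results of these data known, so nothing is read from the share that passed. Of all genes, 2.4% were called lower in the PS and 0.378% in the SS. With equal sums if-a alone passed in the PS, where nk4 (adjusted p = 0.0650), smyd1 (0.229) and irx-b (0.238) did not, and none passed in the SS (irx-b 0.0827, limma). No gene at all was called in either comparison without cardiac tube replicate 2, and without replicate 1 there were 2 in the PS and 0 in the SS. The summed level of the 5 markers was 47299 to 52415 FPKM in the PS, 64196 to 65878 FPKM in the SS and 120625 to 128040 FPKM in the cardiac tube, most of it from if-a. Without if-a the sums were 7235 to 7573 FPKM, 8072 to 8346 FPKM and 9733 to 10509 FPKM in the same order of parts. The part of muscle content in the levels of err and coup was not tested, and in such bulk samples fewer cells of a type and less RNA per cell cannot be told apart.

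Set against nk4 in the same library, err was at 0.732 and 0.926 of the nk4 level in the PS, 1.15 and 0.952 in the SS, and 1.09 and 1.06 in the cardiac tube. Both PS values of err over nk4 lay below all others, and those of the SS spanned those of the cardiac tube. The ratio of coup to nk4 was 0.159 and 0.135 in the PS, 0.105 and 0.0931 in the SS, and 0.108 and 0.137 in the cardiac tube. On the nk4 scale coup was no longer lower in the PS, whose values overlapped those of the cardiac tube, and the SS values were below those of the cardiac tube by less than the gap between its replicates.

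The other muscle markers did not all give the same order. Relative to tropm1, err averaged 0.0433 ± 0.000951 in the PS, 0.0613 ± 0.00522 in the SS and 0.0760 ± 0.00421 in the cardiac tube, the same order as its FPKM. Relative to smyd1 the order was also kept without overlap, with 0.804 and 0.946 in the PS, 1.05 and 1.11 in the SS, and 1.36 and 1.13 in the cardiac tube. The nearest SS and cardiac tube values (1.11 and 1.13) were closer together than the cardiac tube replicates. Relative to if-a err averaged 0.00672 ± 0.00105 in the PS, 0.00777 ± 0.000584 in the SS and 0.00577 ± 0.000376 in the cardiac tube, so that err was least abundant per if-a transcript in the cardiac tube. For coup the ratio to tropm1 was 0.00782 ± 0.00202 in the PS, 0.00577 ± 0.000196 in the SS and 0.00875 ± 0.00210 in the cardiac tube, and that to smyd1 was 0.156 ± 0.0262, 0.102 ± 0.00899 and 0.141 ± 0.00831 in the same order of parts. In both ratios the PS libraries overlapped the cardiac tube and the SS libraries lay below it. The ratio of coup to if-a was 0.00119 ± 0.000151 in the PS, 0.000732 ± 1.75e-05 in the SS and 0.000657 ± 7.95e-05 in the cardiac tube (SD, n = 2 each). In the PS err was thus lowest relative to nk4, tropm1 and smyd1 but not to if-a. Relative to none of these 4 was coup below the cardiac tube in both PS libraries. No ratio to the remaining marker, irx-b, was taken. Its log2 differences from the cardiac tube were -0.67 in the PS and -0.85 in the SS. Those of err were -1.21 and -0.58, and those of coup -0.56 and -0.83. In the SS err thus fell less than irx-b, unlike relative to tropm1 and smyd1, and coup fell about as much.

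**Figure D2:**
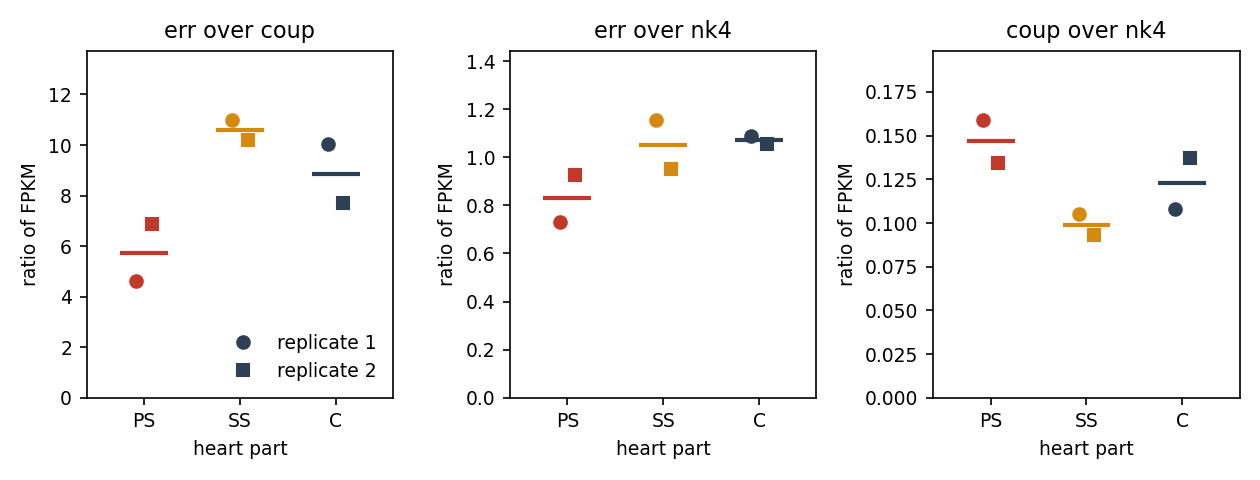
Ratio of FPKM values within each library for err over coup, err over nk4 and coup over nk4 (circle, replicate 1; square, replicate 2; bar, mean) in the PS, SS and cardiac tube (C). The err to coup ratio was 4.61 and 6.88 in the PS and at least 7.71 in every other library, and the coup to nk4 ratio of the PS overlapped that of the cardiac tube.

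Markers of other tissues moved in different ways between the parts. The endostyle marker endostyle-specific, of a pharyngeal gland, was at 128 and 1010 FPKM in the PS libraries, 21.5 and 9.94 FPKM in the SS libraries and 9.21 and 27.8 FPKM in the cardiac tube libraries. The summed level of 8 sperm and cilia genes was 54.6 to 117 FPKM in the PS, 217 to 612 FPKM in the SS and 81.6 to 103 FPKM in the cardiac tube. Of 7 blood cell genes the sum was 14264 to 17227 FPKM in the PS, 9568 to 11614 FPKM in the SS and 12296 to 12883 FPKM in the cardiac tube. The 6 digestive tract genes summed to 317 to 327 FPKM in the PS, 342 to 389 FPKM in the SS and 298 to 323 FPKM in the cardiac tube. The 6 nervous tissue genes summed to 1118 to 1251 FPKM in the PS, 1249 to 1412 FPKM in the SS and 1893 to 2114 FPKM in the cardiac tube, most of it from ache, which was lower in the PS. The other 5 had positive differences there, and 4 of them passed as higher (th, gnrh1, ci-gnrhr4 and opsin3, with differences of 6.20, 4.77, 2.64 and 2.55, limma), where 5.04% of all genes did. The same 4 passed in the PS with equal sums, where 113 of all 793 genes passed as higher. These lists too were made with earlier results of these data known, so the share that passed is a description only. In none of these lists was a marker at 0 in both libraries of the SS, and 1 digestive marker was at 0 in both libraries of the PS and 1 in both of the cardiac tube. The part of these tissues in the err and coup values was not tested.

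The levels of err and coup were set beside those of other nuclear receptors. The list of other receptors matched 10 symbols of the table, and err had the highest mean over the 6 libraries (461 FPKM), above rxr (353 FPKM), the retinoid X receptor, which pairs with many other nuclear receptors. In the PS, however, err lay below rxr, with a mean of 283 FPKM for err and 348 ± 21.2 FPKM for rxr, and in the SS and the cardiac tube it lay above. The ratio of err to rxr averaged 0.814 ± 0.00424 in the PS, 1.40 ± 0.187 in the SS and 1.68 ± 0.185 in the cardiac tube (SD, n = 2 each). With a mean of 55.9 FPKM, coup was near the lower end, between ppar (57.8 FPKM) and nr41/42/43 (49.8 FPKM).

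None of the 10 other receptors passed an adjusted p of 0.05 by limma, where 7.44% of all genes passed between the PS and the cardiac tube, 1.64% between the SS and the cardiac tube and 1.26% between the sinuses. At an unadjusted p under 0.05 there were 3, 2 and 1 of the 10 in these comparisons, beside 23.3%, 23% and 14.9% of all genes. Their median difference was 0.06 in the PS and -0.21 in the SS, each against the cardiac tube, and 0.16 in the PS against the SS, beside medians of -0.00, 0.02 and -0.00 over all genes. With equal sums the medians of the receptors were 0.47 and 0.20 in the PS and SS, beside 0.39 and 0.42 over all genes, so the sign for the SS turned. The receptor with the lowest difference was fxr, with -0.72 in the PS (adjusted p = 0.0774) and -0.71 in the SS (adjusted p = 0.110, limma). It measured 76.0 and 70.0 FPKM in the PS, 66.7 and 81.2 FPKM in the SS and 128 and 114 FPKM in the cardiac tube. Besides fxr, only hnf4 of the 10 was below both cardiac tube libraries in all 4 sinus libraries, with a difference of -0.08 in the PS and -0.07 in the SS that turned positive with equal sums (0.32 and 0.34). The symbol tlx had the widest difference between the sinuses (1.32, adjusted p = 0.0728, limma), and with equal sums it passed as higher in the PS against the cardiac tube (1.04, adjusted p = 0.0467, limma). The receptor gcnf, with differences of 0.51 in the PS and 0.34 in the SS that did not pass (adjusted p = 0.153 and 0.321, limma), passed as higher with equal sums in both (0.92, adjusted p = 0.0226, and 0.75, adjusted p = 0.04998) and with adjusted read values in both (adjusted p = 0.00737 and 0.0256, limma). With equal sums 2 and 1 of the 10 receptors passed as higher in the PS and SS, beside 113 and 112 of all 793 genes. With adjusted read values the counts were 2 and 1, beside 120 and 130 of all genes. The symbols fxr and tlx each also name another kind of gene in vertebrates, an RNA-binding protein and a homeobox gene, and the table does not say which is meant.

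The retinoid receptor rar, whose vertebrate counterpart acts upstream of Nr2f genes, measured 211 and 219 FPKM in the PS, 188 and 179 FPKM in the SS and 212 and 211 FPKM in the cardiac tube. Its differences of 0.03 in the PS and -0.21 in the SS against the cardiac tube did not pass (adjusted p = 0.917 and 0.367, limma), and that in the SS turned positive with equal sums (0.21).

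**Figure D3:**
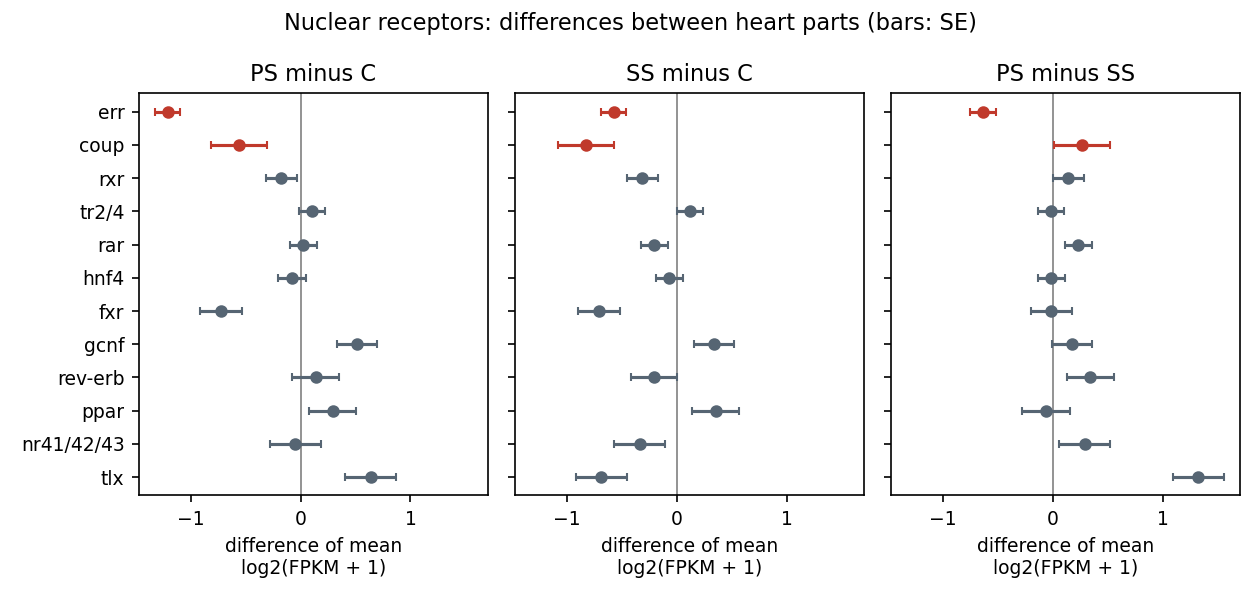
Differences of mean log2(FPKM + 1) with their standard errors for err and coup (red) and the 10 other listed nuclear receptors (grey, in order of mean level), for the PS minus the cardiac tube (C), the SS minus the cardiac tube and the PS minus the SS. The lowest value between the PS and the cardiac tube was that of err (-1.21) and the lowest between the SS and the cardiac tube that of coup (-0.83), and fxr was negative in both.

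Other lists held few genes near these receptors in function. The carotenoid oxygenase symbol bco was the only match of the retinoic acid and cofactor list (differences of -0.11 in the PS and 0.35 in the SS against the cardiac tube, adjusted p not under 0.05), and no symbol of the mitochondrial and energy metabolism list was matched, so that list gave 0 genes. Of 4 genes of the Notch and vessel list none was called by limma in the PS in the deposited scaling (2 at an unadjusted p under 0.05, beside 23.3% of all genes). In the SS against the cardiac tube 1, dlc, was higher, where 1.26% of all genes were. Between the sinuses 1 of the 4 was called lower in the PS, as 4 of all genes were. In the PS dlc was called lower than in the cardiac tube with equal sums, as 11 of 793 genes were, and with equal medians, as 29 were. With equal medians ephrinb was called lower in the SS, as 20 genes were. The symbol dlc was matched by name only, and the deposited table does not say whether it means a Notch ligand. The 2 Hedgehog genes, the ligand hh1 and the transcription factor gli, had differences of -0.61 and -0.84 in the PS and of -0.71 and -0.75 in the SS, and neither was called in either comparison by limma (gli alone had an unadjusted p under 0.05, in both). For gli the adjusted p was 0.0502 in the PS and 0.103 in the SS (limma). With equal medians gli passed as lower in the PS (adjusted p = 0.0261, limma), as 29 of 793 genes did, but not in the SS (0.0506). With equal sums it passed in neither sinus. Of 14 cardiac regulators, 3 were lower in the PS (nk4, smyd1 and irx-b) and 1 in the SS (irx-b), beside 2.4% and 0.378% of all genes. With equal sums none of these passed as lower, and 2 passed as higher in each sinus (irx-c and isl in the PS, gataa and isl in the SS). In that scaling 113 of all 793 genes passed as higher in the PS and 112 in the SS. The regulators were also listed with earlier results of these data known. Nothing particular to the regulators is therefore read from any of these calls.

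To place the profiles among all genes, each of the 732 genes with a mean FPKM of at least 5 was compared with err and coup by Pearson's r of log2(FPKM + 1) over the 6 libraries. These are 3 pairs of replicates from which 1 common factor had been removed, and many genes reach a high r by group means alone. For err, 35 genes had an r of at least 0.9 and 49 an r of -0.9 or less, and for coup 16 and 21. The r is given as a description.

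The genes most like err were zf(bbox/ring)-6 (r = 0.992), the acetylcholinesterase gene ache (0.988), LOC100177903 (0.987), ppan (0.977) and tensin (0.974), a gene of focal adhesions in vertebrates. The first of them measured 3502 and 3830 FPKM in the PS, 5249 and 4905 FPKM in the SS and 8128 and 7893 FPKM in the cardiac tube, with the same steps as err and the same library higher in each pair. Next to them ache had 802 and 798 FPKM in the PS, 1303 and 1130 FPKM in the SS and 1819 and 2039 FPKM in the cardiac tube. The muscle markers smyd1 (0.947), if-a (0.947), tropm1 (0.940) and nk4 (0.930) ranked 16th, 17th, 20th and 23rd. The remaining muscle marker, irx-b, ranked only 112th (0.726). At the opposite end stood ckn1 (-0.998), LOC100182205 (-0.993) and rcl2 (-0.992), and ckn1 measured 223 and 214 FPKM in the PS, 177 and 186 FPKM in the SS and 150 and 148 FPKM in the cardiac tube.

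The genes most like coup were different ones. They were dusp6.9 (r = 0.996), named for phosphatases that dampen MAP kinase signalling, LOC100185377 (0.984), the Hedgehog ligand hh1 (0.973), bmp5/7-like (0.964) and the MAP kinase erk1/2 (0.958). The dusp6.9 transcript measured 946 and 793 FPKM in the PS, 806 and 806 FPKM in the SS and 1025 and 1172 FPKM in the cardiac tube, following the replicate differences of coup as well as its group means. Levels of hh1 were low, at 19.1 and 15.6 FPKM in the PS, 16.9 and 15.3 FPKM in the SS and 24.0 and 30.2 FPKM in the cardiac tube. Least like coup were zf(c2h2)-78 (-0.999), ciap (-0.999), an alkaline phosphatase symbol used as a digestive marker, and mina53-like1 (-0.992). Of the muscle markers irx-b came nearest to coup (0.889, 19th). It was followed by if-a (0.780, 67th), nk4 (0.750, 82nd), smyd1 (0.688, 125th) and tropm1 (0.569, 180th).

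The profiles of err and coup had an r of 0.549 with each other over the 6 libraries, which placed coup 195th among the genes compared with err. It was 0.281 without cardiac tube replicate 2 and 0.813 without PS replicate 1.

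The scaling of the libraries set the size, though not the sign, of the differences from the cardiac tube. The FPKM values of each library were rescaled to equal sums over the listed genes. The median over all genes then shifted by 0.40 in the PS and by 0.41 in the SS relative to the cardiac tube. Every difference of err and coup from the cardiac tube became less negative. The difference of err was then -0.81 in the PS and -0.16 in the SS, and that of coup was -0.16 in the PS and -0.42 in the SS. The values of err with equal sums were 291 and 338 in the PS and 536 and 449 in the SS, against 545 and 553 in the cardiac tube, so that 1 SS library came within 9.38 of the cardiac tube while the PS stayed well below. Those of coup were 63.2 and 49.1 in the PS and 48.8 and 43.9 in the SS, against 54.3 and 71.7 in the cardiac tube. With the adjusted read values at equal totals the differences were -0.88 and -0.22 for err and -0.23 and -0.49 for coup. With equal medians the differences were -1.25 and -0.64 for err and -0.59 and -0.89 for coup. The gene if-a alone took 8.41% and 7.99% of the adjusted read total in the PS and 11.3% and 11.0% in the SS, against 16.9% and 18.1% in the cardiac tube. The differences between the sinuses ranged only from -0.66 to -0.61 for err and from 0.25 to 0.30 for coup over these scalings.

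**Figure D4:**
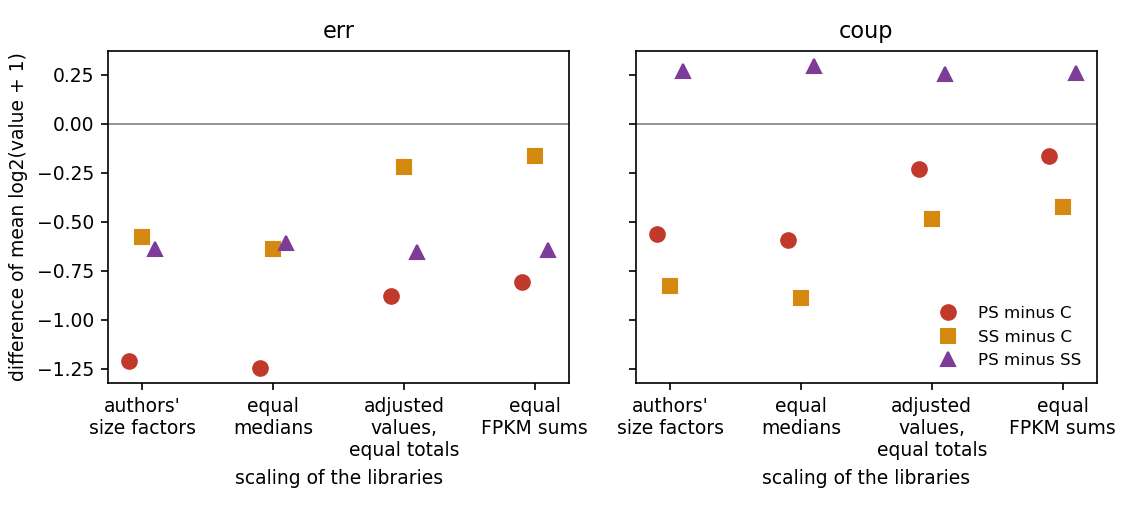
Differences of mean log2(value + 1) for err (left) and coup (right) under 4 scalings of the libraries, as circles for the PS minus the cardiac tube (C), squares for the SS minus the cardiac tube and triangles for the PS minus the SS. Both differences from the cardiac tube were negative under every scaling, and that of err in the SS lay between -0.64 and -0.16.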

How the data were processed

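According to the study's methods, the authors trimmed reads with cutadapt, aligned them with STAR to the UCSC genome ci3, counted unique reads per gene with featureCounts and took out 1 factor of unwanted variation with RUVs within DESeq2. The deposited FPKM were made by the authors from adjusted values, with size factors in place of library totals. The deposited columns headed raw are a score, namely reads after that removal, rounded. Over 179 genes with means above 1000, 1 weighted sum of the replicate differences on the natural log scale was at most 0.000695, where the median difference was 0.0835. They summed to between 1412759 and 1950483 per library over the listed genes, and read depth is unknown. The authors' fold changes and p-values per comparison were not used. None of the symbols matched the reference table (0 matches), so no coordinates or sequences are printed. Whether near-identical copies share reads was not checked.

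A linear model of the 3 groups (limma 3.58.1, R 4.3.3) was applied to the log2(FPKM + 1) values of all 793 genes, a pseudocount of 1, with a term for the removed factor and a variance trend, leaving 2 residual degrees of freedom. The threshold was an adjusted p of 0.05 (Benjamini-Hochberg over all genes, no filter). The fit was tested on simulated data, drawn with normal errors and with the factor already removed. That simulation could not probe how the libraries were scaled. Replicates are separate pools by label only, so p-values measure the spread between these libraries. Members and lists were chosen with earlier results of these data known. Beyond err and coup, receptors were named from the list when called or else for their level, here with those singled out after their values were seen (fxr, hnf4, tlx, gcnf and rar). Also named were the 5 genes most like and the 3 least like each member among those with a mean FPKM of at least 5, and up to 3 called genes of other lists, with hh1 and gli, which were not called in the deposited scaling, the nervous tissue markers and the regulators called with equal sums chosen after their values were seen. Alternatives were other pseudocounts (0.1 and 10), a filter, no factor term, no trend, other scalings, the adjusted values, a replicate block and each library left out.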

Additional observations from a re-analysis of the deposited data

How the results depend on the processing

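No difference of err or coup changed sign among 72 recomputed, of which 18 could not move by construction (6 with a replicate block and 12 without a library of neither part compared). In 8 the value moved by more than the replicate SD, namely the differences from the cardiac tube with equal sums (err -0.81 and -0.16, coup -0.16 and -0.42 in the PS and SS) and with adjusted read values (err -0.88 and -0.22, coup -0.23 and -0.49). Leaving out 1 library gave for err -1.28 to -1.15 (PS against C), -0.63 to -0.52 (SS against C) and -0.70 to -0.57 (PS against SS), for coup -0.78 to -0.34, -1.003 to -0.66 and 0.05 to 0.49, and for their r 0.281 to 0.813.

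Counts of called genes depended far more on the fit. In the order PS against C, SS against C and PS against SS they were 59, 13 and 10, and 151, 113 and 33 without the factor term, 13, 0 and 15 without the trend, 131, 135 and 34 with adjusted values, 124, 114 and 22 with equal sums, and 74, 40 and 17 with equal medians. For the SS against C and the PS against SS they were 2 and 2 with a pseudocount of 0.1 and 26 and 3 with the filter, and for the SS against C 2 with a pseudocount of 10. Without 1 library they ran from 0 to 81, 0 to 92 and 0 to 58, with 0 in all 3 comparisons without cardiac tube replicate 2. With equal sums 113 of 124 calls in the PS and 112 of 114 in the SS were higher, against 40 of 59 and 10 of 13. The other receptors had 0 calls in each comparison, but 3, 2 and 1 without the factor term, 2, 1 and 1 with adjusted values, 2 and 1 with equal sums in the PS and SS, and 1 between the sinuses with equal medians or without the trend. With vdr-a, vdr-b, ftzf and nr-like added and tlx and fxr left out, a list chosen after seeing the data, the count was 0. The cause was not tested.

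The labels number replicates alike in each part but do not say that a number marks a shared animal or day. Same-numbered libraries deviated in opposite directions (r of -0.419 to -0.550 over 732 genes), as the removal of a common factor leaves them. The removed factor, as read from these differences, was almost the contrast of replicate 1 with replicate 2 in every part (cosine 0.997). A replicate block added to the model therefore nearly repeated the factor term. It left 1 residual degree of freedom and 0 called genes in each comparison, and did not change the differences of err and coup.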
